A study of Mus musculus with 8 samples.

Results

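Broad domains of H3K27me3 were chosen by wild-type length, as the wild-type H3K27me3 intervals with a deposited length of 40000 bp or more, and there were 578 of them among 20705 wild-type intervals (2.79%). They covered 36.5 Mb of the 244 Mb under wild-type H3K27me3 (15.0%). The cells were mouse neuronal stem cells stably transduced with H3.3K27M or with wild-type H3.3, on a shared p16Ink4a and p14Arf negative background, grown in Neurobasal A with EGF and bFGF. Chromatin immunoprecipitation sequencing (ChIP-seq) of H3K27me3, H3K4me3 and H3K27ac gave 1 library for each of the 2 genotypes and each mark, so no difference between K27M and wild type below has a replicate check. The transduced cells carried the added histone beside their own histone genes, and the labels do not say whether a line is 1 clone. The sequencing depth of the libraries is unknown. The K27M and wild-type lists held 5877 and 20705 intervals for H3K27me3, 22820 and 23368 for H3K4me3, and 20040 and 39018 for H3K27ac.

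H3K27me3 is deposited by the Polycomb complex PRC2 and marks genes held silent, most of all developmental regulators that belong to other lineages. Long stretches of the mark form over CpG-rich gene clusters such as the Hox clusters. The K27M substitution replaces the lysine that PRC2 methylates with methionine, is known from paediatric diffuse midline gliomas, and lowers the mark across most of the genome while some sites keep it. H3K4me3 marks active and poised gene starts, and H3K27ac marks active enhancers and promoters on the same lysine that carries H3K27me3.

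Wild-type length chose the domains, and the wild-type density comes from the same library, so both are given as description. Domain length had a median of 51999 bp, with quartiles of 44999 and 69299 bp and a range of 40199 to 429799 bp. There were 210 domains of 60000 bp or more, 48 of 100000 bp or more and 5 of 200000 bp or more. The wild-type mean tag density over an interval, in the authors' units, had a median of 9.14 in the domains and 4.92 in the 20127 narrower intervals. Just under the threshold lay 5 intervals of 39999 bp, with densities of 5.81 to 9.50 and 0% to 44.5% of their length under K27M H3K27me3. Just over it lay 4 of 40199 bp, with densities of 5.79 to 15.1 and 0% to 67.7%. A CpG island, as counted in the deposited tables, lay in 290 domains (50.2%) and in 11.7% of narrower intervals.

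The promoter sequences below are 6 examples of starts in domains, with and without a K27M H3K27me3 interval over the start. Hand2 (chr8:57320733-57321032, plus strand), Sim1 (chr10:50895401-50895700, plus strand) and Wnt3a (chr11:59290702-59291001, minus strand) lie in domains and had a K27M H3K27me3 interval over the start. Nkx1-1 (chr5:33434041-33434340, minus strand), Prdm16 (chr4:154636824-154637123, minus strand) and Krt5 (chr15:101712856-101713155, minus strand) lie in domains with no K27M interval. Each runs 250 bases before to 50 after the annotated start, from RefSeq on GRCm38.p6, written 5′ to 3′ on the gene's strand, with every CG in capitals. Krt5 was chosen after its values were seen.
Hand2: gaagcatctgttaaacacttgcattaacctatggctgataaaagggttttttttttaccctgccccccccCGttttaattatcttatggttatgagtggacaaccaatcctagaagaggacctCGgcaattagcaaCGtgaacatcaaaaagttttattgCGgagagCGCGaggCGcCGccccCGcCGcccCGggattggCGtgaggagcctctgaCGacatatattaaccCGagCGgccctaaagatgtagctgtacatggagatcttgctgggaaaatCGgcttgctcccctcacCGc
Sim1: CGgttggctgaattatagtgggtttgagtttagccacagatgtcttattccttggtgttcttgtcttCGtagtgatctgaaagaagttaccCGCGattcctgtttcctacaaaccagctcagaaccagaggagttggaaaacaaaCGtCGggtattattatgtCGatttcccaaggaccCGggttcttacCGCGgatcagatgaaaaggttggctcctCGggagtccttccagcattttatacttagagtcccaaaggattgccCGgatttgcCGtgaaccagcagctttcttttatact
Wnt3a: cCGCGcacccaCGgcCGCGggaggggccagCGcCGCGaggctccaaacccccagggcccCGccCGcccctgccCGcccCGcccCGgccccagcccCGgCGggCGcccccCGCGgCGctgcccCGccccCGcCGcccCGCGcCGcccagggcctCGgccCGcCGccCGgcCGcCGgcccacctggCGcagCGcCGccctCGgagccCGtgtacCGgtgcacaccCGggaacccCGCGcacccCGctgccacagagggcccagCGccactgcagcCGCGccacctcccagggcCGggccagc
Nkx1-1: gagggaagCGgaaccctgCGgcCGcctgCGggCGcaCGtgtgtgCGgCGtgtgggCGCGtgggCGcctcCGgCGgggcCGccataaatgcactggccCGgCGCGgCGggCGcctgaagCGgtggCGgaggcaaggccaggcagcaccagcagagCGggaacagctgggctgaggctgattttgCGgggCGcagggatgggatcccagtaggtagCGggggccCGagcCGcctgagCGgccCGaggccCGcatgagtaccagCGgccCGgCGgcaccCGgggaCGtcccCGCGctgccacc
Prdm16: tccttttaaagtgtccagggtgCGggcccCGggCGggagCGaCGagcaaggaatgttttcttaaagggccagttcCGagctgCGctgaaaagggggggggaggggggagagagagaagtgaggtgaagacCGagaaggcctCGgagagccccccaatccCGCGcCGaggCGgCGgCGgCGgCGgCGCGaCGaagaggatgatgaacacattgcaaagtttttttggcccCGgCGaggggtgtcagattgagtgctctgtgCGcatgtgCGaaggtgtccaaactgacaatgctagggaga
Krt5: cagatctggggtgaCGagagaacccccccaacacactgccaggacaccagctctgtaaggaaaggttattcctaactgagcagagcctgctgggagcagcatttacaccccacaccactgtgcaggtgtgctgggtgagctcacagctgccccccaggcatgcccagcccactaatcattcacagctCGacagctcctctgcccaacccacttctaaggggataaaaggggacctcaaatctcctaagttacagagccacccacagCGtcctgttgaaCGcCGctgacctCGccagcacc
The marked starts held 17, 13 and 45 CG in Hand2, Sim1 and Wnt3a, against 37, 24 and 6 in Nkx1-1, Prdm16 and Krt5, so the counts overlapped. At least 1 CG, the same letters on both strands, was in 97.2% of the 951 promoter windows in domains and in 94.6% of all 32851 windows. None of the 6 starts had H3K4me3 within 500 bp in K27M cells, and Prdm16 alone of the 6 had it there in wild-type cells.

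The domains also held 38 annotated miRNA genes, of which 35 had a sequence in the reference set used here. The HoxB and HoxC domains each held a copy of the gene for miR-196a, which in vertebrates targets Hox transcripts. The 2 copies give the same mature strand, shown with its seed, bases 2 to 8, in capitals. Mir10a of the HoxB cluster and Mir615 of the HoxC cluster have other seeds.
miR-196a-5p, from Mir196a-1 (chr11:96265187-96265208) and Mir196a-2 (chr15:102973365-102973386), both on the plus strand: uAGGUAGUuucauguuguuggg
miR-10a-5p (chr11:96317186-96317208, plus strand): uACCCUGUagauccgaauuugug
miR-615-3p (chr15:103014969-103014990, plus strand): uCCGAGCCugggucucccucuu
Each of these 4 miRNA genes lay wholly under a K27M H3K27me3 interval and had no H3K4me3 interval in either genotype within 1000 bp.

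In K27M cells H3K27me3 as deposited was called in most broad domains but covered the whole of few. A K27M H3K27me3 interval overlapped 468 of 578 domains (81.0%, 95% exact interval 77.5% to 84.1%), against 16.8% of narrower intervals and 18.6% of all wild-type intervals. Such intervals of shares cover counting error over regions only. The median domain had 22.7% of its length under K27M intervals (95% interval of the median 19.8% to 25.9%). Both values changed with a floor on density: with the wild-type 5th percentile of density as a floor in both lists, 45.0% of domains were overlapped, the median share was 0% and 318 domains had none. With wild-type intervals joined across gaps up to 2000 bp the median share was 12.9% over 1110 domains. Pooled over length, K27M intervals covered 33.5% of the domains and 11.8% of the narrower intervals. No K27M interval was called in 110 domains, up to 25% of the length was covered in 196, 25% to 75% in 213 and above 75% in 59 (10.2%, beside 4.57% of all wild-type intervals). Of the overlapped domains, 161 held 1 called K27M interval, 125 held 2, 86 held 3 and 96 held 4 or more, with at most 16. Whether the gaps and the uncovered domains hold signal below the calling limit was not tested. Words such as kept, remnant and bare refer below to called intervals alone. The longest K27M stretch in an overlapped domain had a median of 11000 bp, and 37 domains kept a stretch of 40000 bp or more. The wild-type summit, the point of highest density, lay under a K27M interval in 389 domains (67.3%, beside 15.6% of all wild-type intervals).

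The tag density inside the remaining K27M intervals was lower than in wild type on the authors' scale. Over the 468 overlapped domains the K27M density had a median of 3.33 and the wild-type density a median of 9.99. The K27M density is the deposited mean of whole intervals, also in the 49 domains where an interval reached past an end. The log2 ratio of K27M over wild-type density, with a pseudocount of 1, had a median of -1.27 (95% interval of the median -1.31 to -1.22) and ran between -2.39 and 1.15. It was at least 2-fold lower in 330 domains (70.5%, beside 55.9% of all overlapped wild-type intervals) and above 0 in 16 (3.42%, beside 6.22%). This direction depends on the scale, since the depth of the libraries is not known: with equal 5th percentiles of the 2 lists the median was -0.61 and 51 domains were at least 2-fold lower, and with equal sums over called intervals it turned to 1.32 with 0 at least 2-fold lower. With a pseudocount of 5 there were 85. The 16 domains above 0 were above 0 on both other scales too, since these raise every K27M value.

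**Figure D1:**
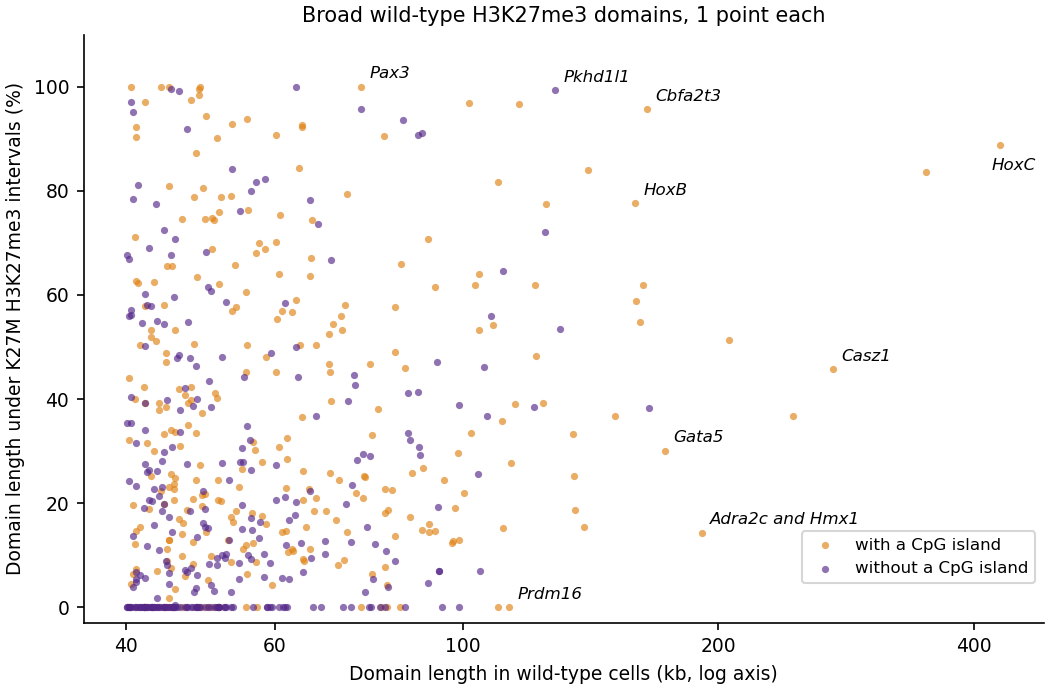
Percent of domain length under K27M H3K27me3 intervals (vertical axis) against wild-type domain length in kb (log axis), 1 point for each of the 578 domains, coloured by whether a CpG island is counted in the domain. Points below 100 kb spread over the full height, the row at 0 holds 110 domains, and the HoxC domain of 429799 bp stands at 88.8% while the Adra2c and Hmx1 domain of 191199 bp stands at 14.3%.

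At like wild-type density, domains were overlapped more often than narrower intervals, while the pooled share of their length was mostly no higher. A K27M interval overlapped 49.3% of domains and 22.3% of narrower intervals at densities of 6 to 7, 72.7% and 40.3% at 7 to 8, and 91.5% and 65.4% at 8 to 10, and the domains were higher in each of the 7 classes. The domains are also longer, and the part of length in this was not tested. The median share at 7 to 8 was 9.45% in domains and 0% in narrower intervals, and at 10 to 15 it was 42.3% and 52.1%. Domains with a wild-type density above 15 had 69.1% of their pooled length under K27M intervals, against 71.6% for narrower intervals of that class. The shares were 43.0% in domains and 51.1% in narrower intervals at densities of 10 to 15, and 27.2% and 31.2% at 8 to 10. They were 13.8% and 18.2% at 7 to 8, 8.71% and 10.1% at 6 to 7, and 7.10% and 6.10% at 5 to 6. In 6 of the 7 density classes the domains were at or below the narrower intervals, the class of 5 to 6 being the exception. The 12 domains with a density of 5 or less had 1.61%, against 3.11% in narrower intervals. By length, the median share was 20.1% in the 258 domains below 50000 bp and 17.4% from 50000 to 60000 bp. It was 23.5% from 60000 to 80000 bp, 19.0% from 80000 to 100000 bp and 47.2% in the 48 domains of 100000 bp or more. The median wild-type densities, in the same order, were 8.25, 8.82, 9.41, 9.26 and 13.6. The share thus showed no steady climb below 100000 bp.

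CpG islands followed the same split. Domains with an island had a median of 30.9% of their length under K27M intervals and a wild-type density of 10.5, against 13.7% and 7.82 for the 288 without one. An interval in K27M cells overlapped 91.7% of domains with an island and 70.1% of those without. Within density classes the order was mixed: at densities of 10 to 15 the median share was 39.8% with an island (108 domains) and 44.2% without (61 domains), and at 7 to 8 it was 13.3% (34 domains) and 8.28% (54 domains). In 208 of the 266 domains that held both an island and a K27M interval, the deposited table counted an island inside a K27M interval.

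**Figure D2:**
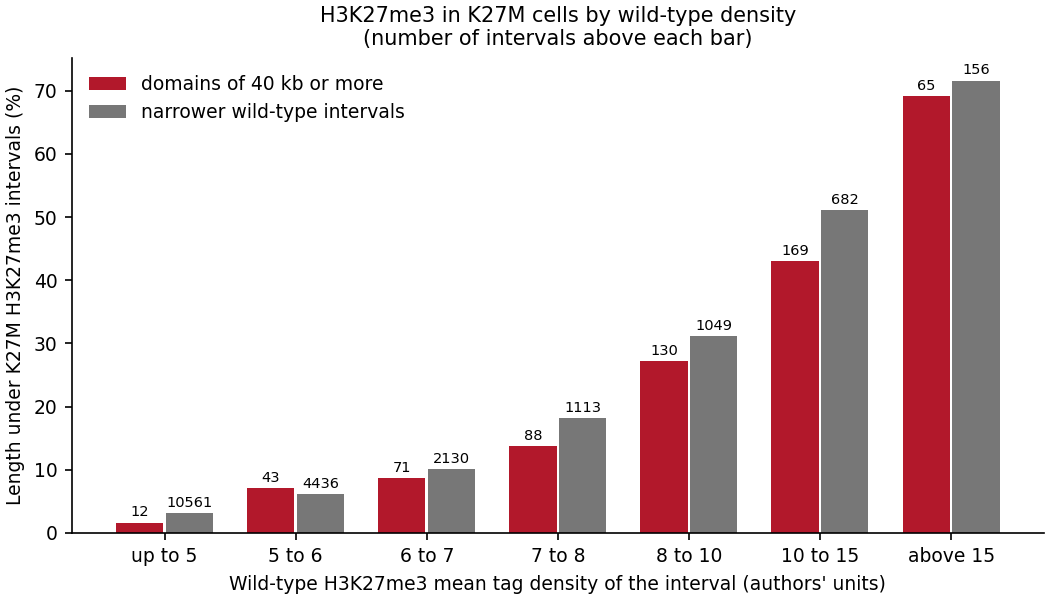
Pooled percent of length under K27M H3K27me3 intervals (vertical axis, starting at 0) in classes of wild-type mean tag density (horizontal axis, authors' units), for domains (red, left) and narrower wild-type intervals (grey, right), with the number of intervals above each bar. The share climbs with density in both sets, to 69.1% in domains and 71.6% in narrower intervals above a density of 15.

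The HoxC domain (chr15:102723400-103153199) was the longest, at 429799 bp, with 23 CpG islands. Its deposited wild-type density of 37.8 was the highest of any domain, beside 36.6 in the next. It lies on chromosome 15, where wild-type H3K27me3 intervals had a median of 5.74 against 4.93 elsewhere, and the part of this in its rank was not tested. It holds Hoxc4 to Hoxc13, which set position along the body axis, and the long noncoding RNA Hotair. In K27M cells 8 intervals covered 88.8% of it at a density of 15.9, the longest stretch being 249800 bp. The HoxB domain (chr11:96232400-96391799), with Hoxb1 to Hoxb9 and 20 CpG islands, had a wild-type density of 33.1. In K27M cells 1 interval of 110199 bp and a second, shorter one covered 77.7% of it at 12.5, leaving both ends bare. The neighbouring Hoxb13 domain of 121599 bp kept 61.8% in 6 pieces.

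Other long domains varied widely in what they kept. A domain of 351599 bp on chromosome 6 (chr6:99873600-100225199), with no curated gene, held 16 K27M intervals. Together they covered 83.6% at a density of 5.38, against 17.8 in wild type. Over Casz1, a zinc finger factor, 272999 bp kept 45.7%. The Gata5 domain, named for a heart and endoderm factor, kept 30.1% of 172799 bp. The domain of Adra2c, an adrenergic receptor, and Hmx1, a homeobox factor of sensory neurons, kept 14.3% of 191199 bp, in 2 intervals. The domain with Cbfa2t3, a corepressor gene, differed from these: 95.8% of its 164799 bp was covered by 1 K27M interval, at a density of 10.3 against 36.6 in wild type. Among dense but shorter domains, Slc17a7, a vesicular glutamate transporter, kept 92.9% at 14.5 against 34.4. Srcin1, a regulator of Src kinase, kept 96.7% at 11.4 against 29.5. Neurod2, a neuronal bHLH factor, kept 74.7% at 15.2 against 30.7, and Prdm12, a factor of pain-sensing neurons, kept 74.7% at 10.3 against 31.3. Further domains picked by length or density held no listed gene. They were those of P4ha2 (94.4% covered), Cant1 (70.0%), Rhpn1 (65.6%), Pkp1 (61.9%) and Hmcn2 (36.7%), and 1 on chromosome 9 with no curated gene (38.4%).

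Wholly inside 1 K27M interval lay 6 domains, and for 4 of them the K27M density was above the wild-type density. The K27M value is the mean over the whole K27M interval, which reaches past the domain. The wild-type value is that of the domain alone, and the part of the flanks in the difference was not tested. Those around Pax3, Foxa2, Sim1 and Tfap2b each lie on a developmental transcription factor gene, 1 on chromosome 14 (chr14:114991600-115040599) holds no curated gene, and 1 holds Gtsf1, a germline piRNA pathway gene. Foxa2, a floor plate and endoderm factor, had a K27M density of 18.5 and a wild-type density of 7.80, a log2 ratio of 1.15 and the only one at least 2-fold higher in K27M (beside 0.625% of all overlapped intervals). The chromosome 14 domain had 24.8 in K27M and 13.5 in wild type. Sim1, a hypothalamic factor, had 15.7 and 10.3 in K27M and wild type. Pax3, a neural crest and dorsal neural tube factor, had 12.3 and 10.4, and its K27M interval of 106599 bp reached past the wild-type domain of 75799 bp. Separate wild-type intervals lay beside that domain, up to -1.40 kb from its first base (density 5.43) and from 76.6 kb on (13.8). The longer K27M interval is therefore no sign of H3K27me3 beyond its wild-type extent. The Hand2 domain, named for a heart and limb factor, was covered to 99.6% with 21.3 in K27M and 14.5 in wild type. Tfap2b, a neural crest factor, and Gtsf1 were covered whole at a lower density in K27M, 12.8 against 14.7 and 13.8 against 17.6. Also among the 10 most covered were the domains of Dcdc5 (99.6%) and Pkhd1l1 (99.4%), neither with a listed gene. A chromosome 9 domain with no curated gene (99.1%) was another. Of the 16 domains with a ratio above 0, 8 held a gene of the 4 lists of transcription factors used here, beside 48 of all 578 domains. As a set, the overlapped domains with a listed factor were lower in K27M, with a median log2 ratio of -1.19. It was -1.28 in the other overlapped domains.

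At the other end, domains with no K27M interval also held developmental genes. Prdm16, a factor of neural stem and brown fat cells, spans 2 such domains of 113399 bp (chr4:154551200-154664599) and 98799 bp, with wild-type densities of 8.63 and 12.9. The density of 12.9 was the highest among the 110 uncovered domains. The domain of Nkx1-1, a homeobox factor, had none over 109799 bp at a wild-type density of 8.06. Domains of 3 calcium channel genes, Cacna1i (84199 bp), Cacng2 (79999 bp) and a part of Cacna2d2 (49999 bp), had no K27M interval. A second Cacna2d2 domain of 83199 bp kept 49.0%, 2 Cacna1g domains kept 29.1% and 30.3%, and 2 Cacna1h domains 73.6% and 15.4%. Of the 12 domains with a listed channel gene 3 had none, and their median share was 29.7%. Col22a1, a collagen, Pdyn, the precursor of dynorphin peptides, Grik4, a kainate receptor subunit, and 1 of the 2 domains on Wt1, a kidney and gonad factor, were also without one. The 110 uncovered domains had a median wild-type density of 6.31, against 14.1 in the 59 domains covered above 75%.

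**Figure D3:**
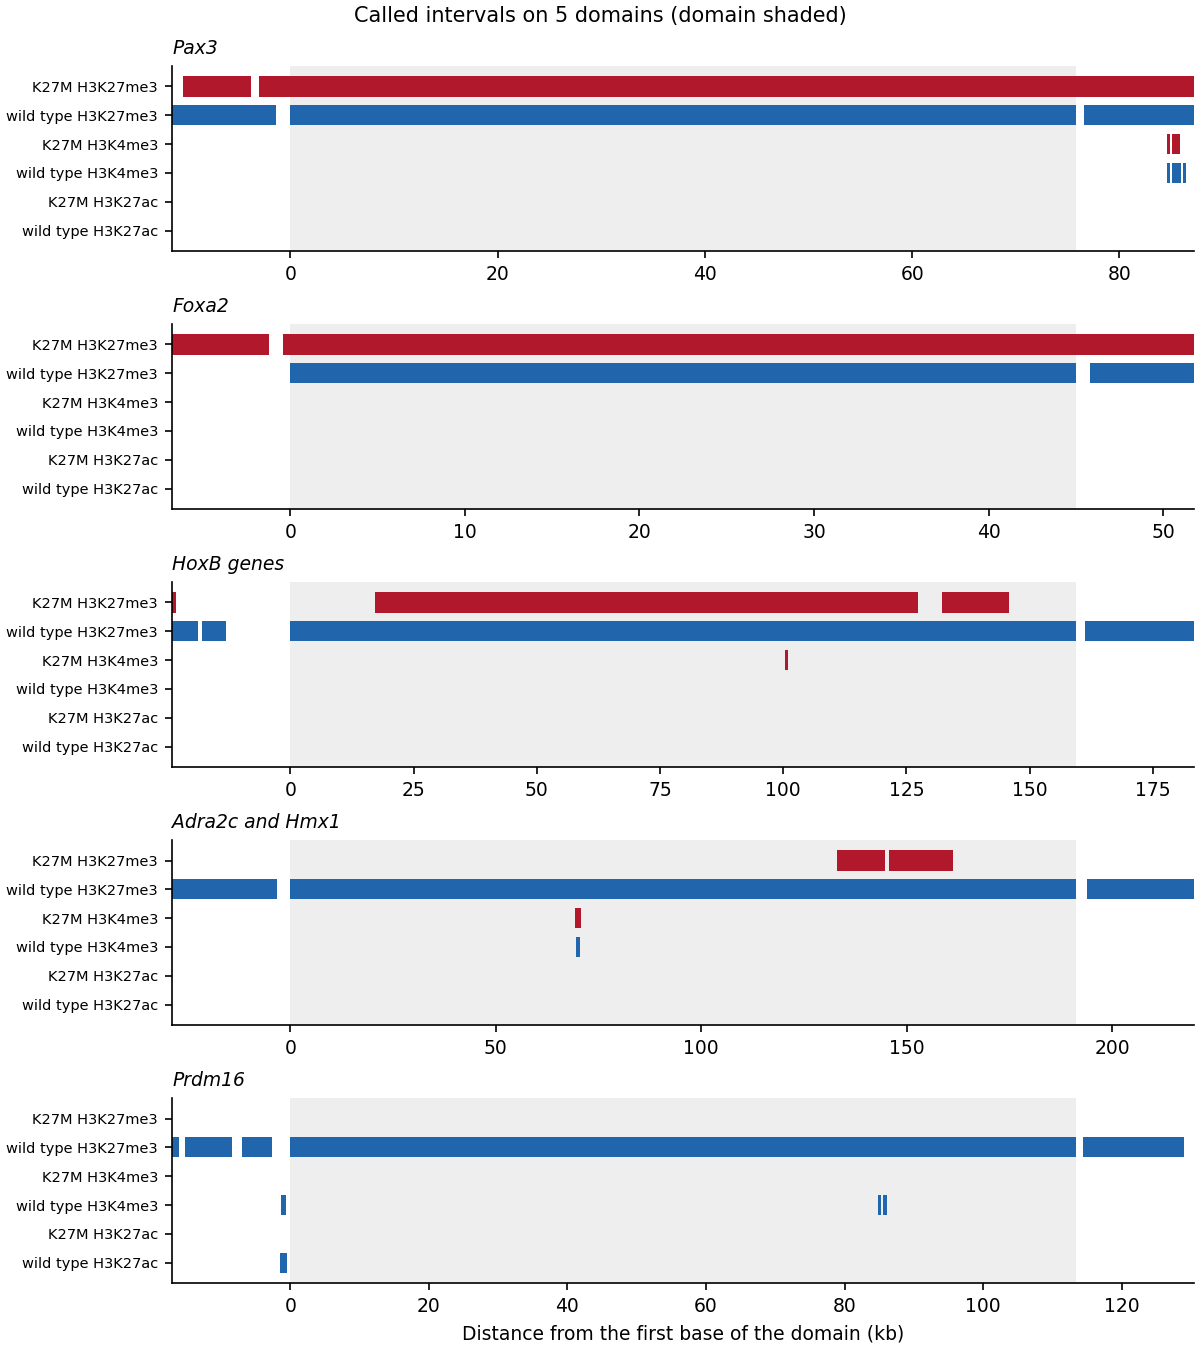
Called intervals on 5 domains, shaded, with distance from the first base of the domain in kb on the horizontal axis and 1 row for each library (K27M in red above wild type in blue for each mark). K27M H3K27me3 runs past both ends at Pax3 and Foxa2, leaves both ends bare at HoxB, keeps 2 neighbouring intervals at Adra2c and Hmx1, and has no interval at Prdm16, where wild type alone has H3K4me3. Separate wild-type H3K27me3 intervals also lie beside all 5 domains, at Foxa2 past the last base alone in the stretch drawn.

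Along a domain, the K27M remnant covered less of the ends than of the centre. The ends are those of the wild-type calls that chose the domains, and narrower intervals were not profiled. How far this choice of ends shapes the profile was not tested. Averaged over the 578 domains, K27M H3K27me3 covered 14.0% of the first 5% of the length and 14.1% of the last 5%, against 38.3% just past the centre. A K27M interval reached past an end in 49 domains. With 5000 bp trimmed from each end the median covered share was 25.6%.

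H3K4me3 was on a similar number of domains in both genotypes. An interval overlapped 218 domains (37.7%, beside 11.5% of all wild-type H3K27me3 intervals) in K27M cells and 213 (36.9%, beside 10.8%) in wild-type cells, and 197 had it in both. Per length the domains were not rich in H3K4me3: they held 10.3 intervals per Mb in K27M and 9.70 in wild type, against 13.7 and 12.4 in the narrower intervals. The H3K4me3 intervals on domains were weaker and shorter than those elsewhere. Their median density was 38.1 in K27M and 32.6 in wild type, against 58.9 and 43.4 elsewhere, and their median length was 635 bp and 655 bp against 1138 bp and 1038 bp. The log2 ratio of K27M over wild-type H3K4me3 density had a median of 0.34 over 295 K27M intervals on domains (95% interval of the median 0.28 to 0.38) and of 0.34 over 19208 elsewhere. Of the 375 K27M H3K4me3 intervals on domains, 244 (65.1%) also overlapped a K27M H3K27me3 interval. The wild-type H3K4me3 intervals on domains did so at a like share, 231 of 354 (65.3%). K27M H3K27me3 intervals covered 33.5% of the domain length. H3K4me3 was on 63.4% of domains with a CpG island in K27M and 61.7% in wild type, against 11.8% in both genotypes for domains without one.

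Few domains differed in H3K4me3 between the genotypes. Of the 213 domains with wild-type H3K4me3, 16 had none in K27M, beside 7.07% of all wild-type H3K27me3 intervals with wild-type H3K4me3. It was on 21 domains in K27M alone (3.63%, beside 1.48%) and on 16 in wild type alone (2.77%, beside 0.763%). The longest K27M-alone stretches were 1470 bp on the chromosome 10 domain of Theg, C2cd4c, Shc2 and Odf3l2, 1067 bp at Skor2, a corepressor of Purkinje cells, and 935 bp at Flt4, the VEGFR3 receptor of lymphatic vessels. Next came 782 bp on the domain of Afap1l1 and Ablim3 and 772 bp at Vdr, the vitamin D receptor. The K27M H3K27me3 share of these 5 domains was 25.1%, 8.92%, 18.1%, 14.8% and 23.2%, in that order. In wild type alone, 1056 bp lay on the longer Prdm16 domain, 942 bp on that of Hs3st6, 848 bp at Mnx1, a motor neuron factor, 799 bp on a chromosome 2 domain with no curated gene, and 459 bp at Nkx2-3. These wild-type-alone domains were chosen for naming after their values were seen.

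H3K27ac was rare on the domains. An interval overlapped 35 domains (6.06%, beside 2.13% of all wild-type H3K27me3 intervals) in K27M and 88 (15.2%, beside 4.05%) in wild type. These shares count any overlap, and the domains are longer. Per Mb the domains held fewer H3K27ac intervals than the narrower intervals, 1.18 against 2.17 in K27M and 3.59 against 4.32 in wild type. In all, 43 K27M and 130 wild-type H3K27ac intervals touched a domain. Wild type alone had it on 56 domains (9.69%, beside 2.37%), out of 88 with wild-type H3K27ac; over all wild-type H3K27me3 intervals with wild-type H3K27ac, 58.5% had none. The K27M H3K27ac list is shorter as a whole, and the count on domains is near that background. H3K27ac was called in K27M alone on 3 domains (0.519%, beside 0.454%): 672 bp on the domain of Scly, Espnl and Klhl30, 254 bp at Maml3, a Notch coactivator, and 201 bp at Pax2, a kidney and midbrain factor. The longest wild-type-alone signal was 3154 bp in 8 intervals on the Shisal1 domain, which kept 51.4% of its H3K27me3 length in K27M.

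H3K27ac was placed toward domain ends. Of the H3K27ac intervals with their centre inside a domain, 21 of 34 in K27M (61.8%) and 45 of 105 in wild type (42.9%) had it within 5 kb of an end, a zone that makes up 15.8% of the domain length. For H3K4me3 these were 85 of 336 (25.3%) in K27M and 71 of 312 (22.8%) in wild type. A domain end was crossed by 17 of the 43 K27M and 45 of the 130 wild-type H3K27ac intervals. With 5000 bp trimmed from each end, H3K27ac remained on 2.25% of domains in K27M and 6.92% in wild type. H3K27ac that overlapped a domain in K27M was on a K27M H3K27me3 interval in 11 of 43 cases (25.6%). For wild-type H3K27ac on domains this was 46 of 130 (35.4%). K27M H3K27me3 covered 33.5% of the domain length, and 14.0% and 14.1% of the first and last 5% of it.

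**Figure D4:**
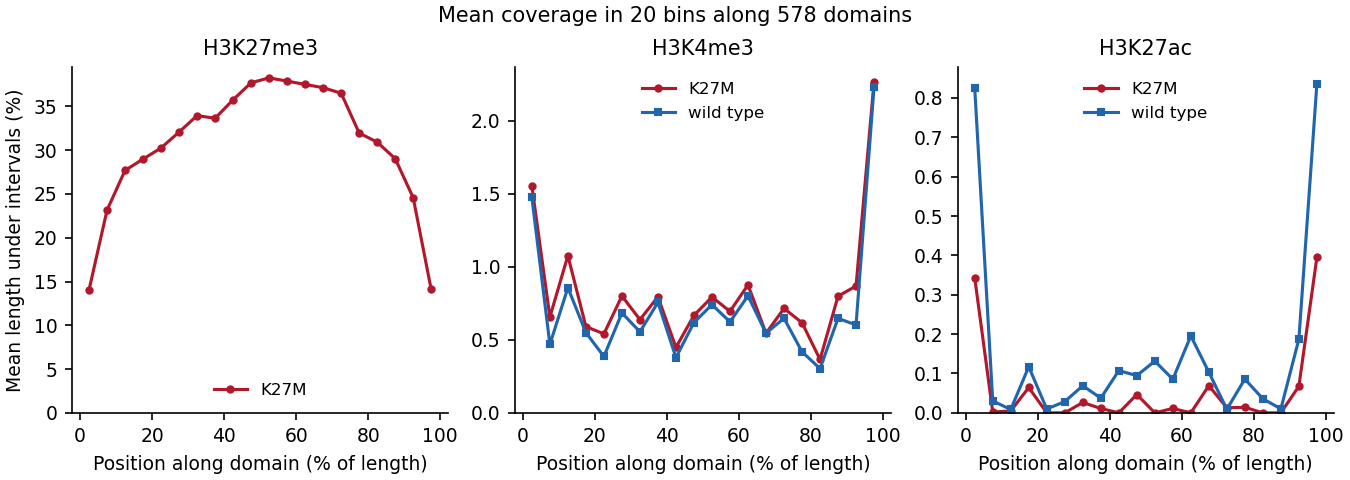
Mean percent of length under called intervals (vertical axis, starting at 0, its scale differing between panels) in 20 bins along the 578 domains (horizontal axis, percent of domain length) for H3K27me3, H3K4me3 and H3K27ac, K27M in red and wild type in blue. K27M H3K27me3 is lowest in the outer bins, at 14.0% and 14.1%, while H3K4me3 and H3K27ac of both genotypes are highest there.

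Gene spans of the RefSeq table showed which classes of genes the domains hold. Of 26219 curated genes, 898 (3.42%) overlapped a domain and 527 lay wholly inside 1, while 113 domains held no curated gene. A K27M H3K27me3 interval lay on 546 of the 898 genes (60.8%), counting the whole gene span, in the domain or outside it, and on 523 (58.2%) counting the span in domains alone. The counts by list below use the whole span. Hox genes were in domains in 19 of 39 cases, all from the HoxB and HoxC clusters, and each of the 19 had K27M H3K27me3 on it, Hoxb3 alone having H3K4me3, in K27M. Other homeobox genes were in domains in 25 of 125 cases, and 23 of the 25 had a K27M interval on the gene. Hmx1, Pax2, Cdx1, Nkx1-1, Onecut3 and Uncx lay in the longest of these domains, with 14.3%, 36.8%, 33.3%, 0%, 53.3% and 65.9% of domain length covered. Among forkhead, T-box, Gata, Hand and Sox factors 6 of 63 were in domains (Gata5, Gata4, Hand2, Tbx3, Foxa2 and Tbx15), and all 6 had a K27M interval on the gene. Gata4, a heart factor, lay in a domain covered to 39.1%, and Tbx3, a limb and heart factor, in 1 covered to 12.5%. Among bHLH and zinc finger fate factors 13 of 86 were in domains, 10 of them with a K27M interval on the gene, and the domain of Atoh8 kept 81.6%.

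Genes and their domains differed in how far they were covered. Bhlhe23, an interneuron and retinal factor, was wholly under K27M H3K27me3 in a domain covered to 27.7%. Neurog3, the endocrine pancreas factor, was wholly covered in a domain covered to 11.9%, and Dlx3 and Dlx4, limb and jaw homeobox factors, in 1 covered to 32.6%. Hmx1 was covered over 93.0% of its span in a domain covered to 14.3%. Myod1, the muscle factor, and Nkx2-5, the heart factor, had 0% on the gene in domains covered to 9.92% and 18.6%. Over RefSeq promoter windows, 404 of the 951 starts in domains (42.5%) lay under a K27M interval. Starts in CpG-rich windows (ratio of observed to expected CG of 0.6 or more and GC of 50% or more) were under K27M H3K27me3 in 125 of 206 cases (60.7%), against 279 of 745 other starts (37.4%). H3K4me3 lay within 500 bp of 47.6% of the CpG-rich starts in K27M and of 45.6% in wild type, against 5.50% and 5.37% of the others.

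Taken as a set, the 48 domains with a listed transcription factor had a median of 55.1% of their length under K27M H3K27me3, against 21.3% in the other 530. Their wild-type density was also higher, with medians of 13.6 and 8.88, and 95.8% against 46.0% held a CpG island. These 3 values moved together, and their separate parts were not tested. H3K4me3 was on 22 of the 48 in K27M and on 24 in wild type.

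**Figure D5:**
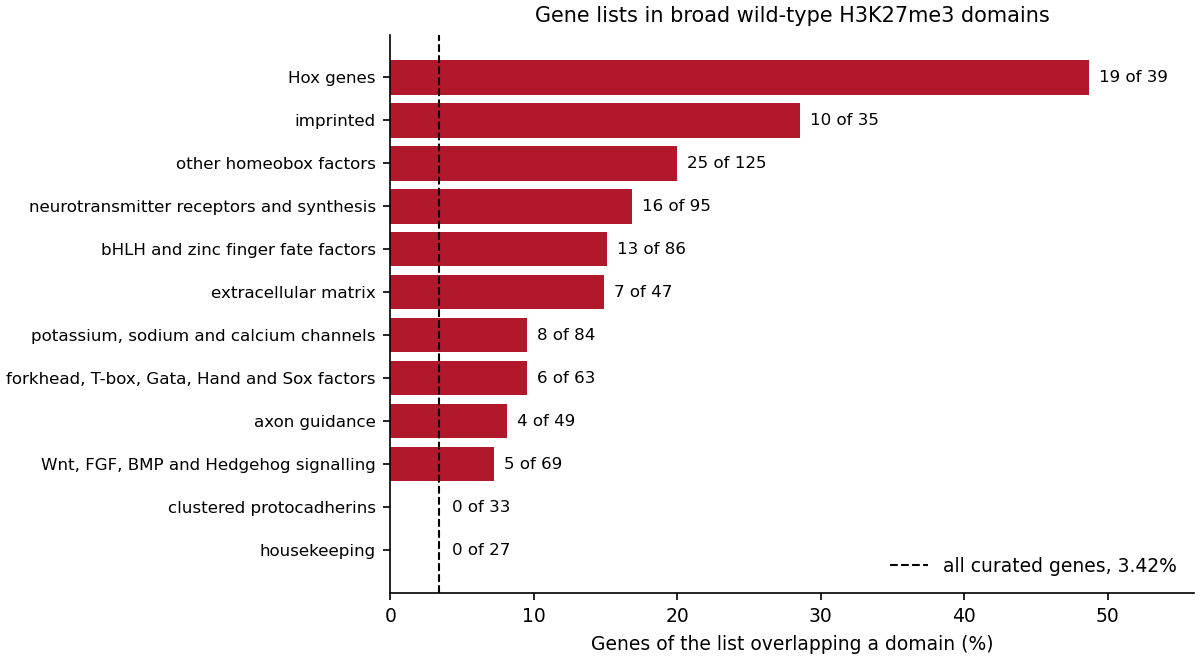
Percent of the genes of each list that overlap a domain (horizontal axis, starting at 0), with the count beside each bar and a dashed line at the 3.42% of all curated genes. Hox genes stand highest, at 19 of 39. The clustered protocadherins and housekeeping genes have none in a domain, which for lists this short is not set apart from the 3.42%.

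Of 69 Wnt, FGF, BMP and Hedgehog genes 5 were in domains, Ihh, Fgf3, Fgf4, Wnt3a and Wnt9a, all secreted ligands, in 3 domains covered to 61.6%, 54.4% and 67.1%. Of 95 genes for neurotransmitter receptors, transporters and synthesis 16 were in domains, with a K27M interval on 11 of the 16 genes and a median covered share of those domains of 14.3%. Among them, Dbh, which makes noradrenaline, lay in a domain covered to 77.5%, and Gabrd, a GABA receptor subunit, in 1 covered to 39.3%. Th, which makes the dopamine precursor, lay in 1 covered to 12.4%, Slc6a5, a glycine transporter, in 1 covered to 18.1%, and Slc6a2, the noradrenaline transporter, in 1 covered to 14.5%. Channel genes were in domains in 8 of 84 cases and 5 of the 8 had K27M H3K27me3 on the gene. Extracellular matrix genes were in domains in 7 of 47 cases, with a median covered share of 13.4%, and axon guidance genes in 4 of 49, Epha8, Slit3, Slit1 and Efna1. None of 33 clustered protocadherins and none of 27 housekeeping genes overlapped a domain. At the share of all genes, lists this short with none in a domain are not set apart from other genes.

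Imprinted genes, expressed from 1 parental allele, were in domains in 10 of 35 cases, in 7 domains. The chromosome 7 cluster of Kcnq1, Kcnq1ot1, Cdkn1c, Slc22a18 and Phlda2 lay in domains of 161799 bp and 135199 bp, covered to 54.8% and 25.1% in K27M, and Phlda2 had H3K4me3 in K27M alone. Ndn and Magel2, of the Prader-Willi region, lay in a domain of 64599 bp covered to 92.3%. Reads from the 2 alleles are not separated in these tables.

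Lists of cell type markers were set beside the domains, which 3.42% of all curated genes overlapped. None of 20 neural stem and progenitor markers was in a domain, and 19 of the 20 had H3K4me3 in each genotype. Of 12 neuron markers 2 were in domains, Rbfox3 and Slc17a7. Of 8 microglia markers 3 were, Csf1r, C1qa and Itgam, and of 8 endothelial and mural markers 1 was, Pdgfrb. No astrocyte, oligodendrocyte, fibroblast or pluripotency marker was in a domain. At the share of all genes, lists this short with none in a domain do not set cell types apart. Wild-type H3K27me3 intervals of any length lay on 1 of the 20 neural stem and progenitor markers. They lay on 5 of 12 neuron, 2 of 6 astrocyte, 4 of 8 oligodendrocyte and 6 of 8 microglia markers. For endothelial and mural, fibroblast and pluripotency markers these were 5 of 8, 4 of 10 and 3 of 6.

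Domains often lay near one another. Another domain lay within 1 Mb for 458 of 578, and 13 runs of 8 or more domains with gaps of at most 1 Mb held 141. The largest run (chr11:94348200-99434599) held 19 domains, among them those of Dlx3, Hoxb13, HoxB, Srcin1 and Neurod2, each of the 19 with a K27M interval, and 47.6% of its domain length was covered. A run of 10 domains on chromosome 9 (chr9:60250800-61907799) filled 49.5% of 1.66 Mb without a CpG island in any of the 10, and 23.5% of its domain length was covered. A run of 12 on chromosome 15 (chr15:73760200-76312799) was covered to 10.9%, and 6 of the 12 had no K27M interval.

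Chromosome 15 held 52 domains, or 6.28% of its wild-type intervals, the highest share of any chromosome. Interval densities on chromosome 15 were higher than on other chromosomes in all 6 libraries. For H3K27me3 the medians were 3.04 on chromosome 15 and 2.80 elsewhere in K27M, and 5.74 and 4.93 in wild type. For H3K27ac they were 42.7 and 37.1 in K27M, and 29.7 and 25.7 in wild type. The part of these densities in the number of domains was not tested, and leaving out chromosome 15 gave 82.5% of 526 domains overlapped in K27M and a median covered share of 23.2%.

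Read in the other direction, 77 K27M H3K27me3 intervals were 40000 bp or longer. Of these, 69 (89.6%) overlapped a wild-type interval and 42 (54.5%) a broad domain, and their median length under wild-type H3K27me3 was 95.8%. Pooled over length, 72.6% of them was under wild-type H3K27me3. Since wild-type length chose the domains, the shorter K27M intervals on them are no independent sign of a change in length.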

How the data were processed

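Interval tables of 6 ChIP-seq libraries were used, 1 library for each of 2 genotypes and 3 marks, grouped by sample title; the 2 input libraries were not used here. The submitters' processing notes name BWA, SICER and mm10, with versions, roles and thresholds not given in the sources used here. For each interval the authors deposited its position, length and tag density (a coverage signal in bins of 32 or 33 nt, mean and highest) and counts of CpG islands, promoters and genes, per the file headers. All H3K27me3 lengths plus 1 were multiples of 200 bp.

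Overlaps of at least 1 bp, covered length and density ratios (pseudocount 1) were computed with Python 3.11.15, NumPy 2.4.6, pandas 2.3.3 and SciPy 1.17.1, and drawn with matplotlib 3.10.9. The overlap code was tested on simulated data, with 0 of 1600 regions different. Genes came from RefSeq on GRCm38.p6, restricted to curated transcripts. Shares carry exact Clopper-Pearson intervals of 95%, medians binomial ones; with 1 library per group no test between genotypes was possible.

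The domains and gene lists were chosen with earlier results of these data known. Named domains were the 10 longest, the 10 densest, the 10 most covered in K27M, the 10 longest uncovered with a listed gene, and those with the most H3K4me3 (5) or H3K27ac (3) in K27M alone; up to 6 genes of a list were named, by domain length. Other thresholds, overlaps, floors, pseudocounts and scales were tried, and chromosome 15 was left out after its densities were seen.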

Additional observations from a re-analysis of the deposited data

How the results depend on the processing

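Of 102 recomputed values, 49 stayed within their interval or within 1.5 times, 52 moved and 1 reversed. Thresholds of 30000 and 60000 bp gave 1132 and 210 domains, 70.4% and 90.0% of them overlapped in K27M, median covered shares of 18.6% and 28.0%, 335 and 21 with none, 107 and 24 above 75%, 550 and 137 at least 2-fold lower, 26 and 6 with a ratio above 0, H3K4me3 on 32.2% and 45.7% in K27M and 30.9% and 44.3% in wild type, and wild-type H3K27ac on 12.2% and 18.6%; 60000 bp also moved the median log2 ratio to -1.33. Joining wild-type intervals across gaps up to 2000 bp gave 1110 domains, 71.6% overlapped, a median share of 12.9%, 315 with none, a ratio of -1.13 and 33 above 0. An overlap of at least 10% of the domain gave 69.6%. A density floor at the wild-type 5th percentile gave 45.0% overlapped, a median share of 0% and 318 with none, and of the 46 named domains 12 then moved by over 1.5 times. Trimming 5000 bp at each end gave H3K4me3 on 27.7% (K27M) and 26.1% (wild type) and H3K27ac on 2.25% and 6.92%.

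The median log2 ratio was -1.48 and -0.79 with pseudocounts of 0.1 and 5 (85 at least 2-fold lower with 5), -1.72 for the highest density, -0.61 with equal 5th percentiles (51 at least 2-fold lower, 71 above 0), -2.38 over the whole domain (9 above 0), and reversed to 1.32 with equal sums (0 at least 2-fold lower, 468 above 0). The 2 scale factors, 1.76 and 7.46, raise every K27M value by construction. Counting whole intervals inside gave H3K4me3 on 32.01% (K27M) and 30.8% (wild type) and H3K27ac on 3.98% and 9.86%, and the higher 5th percentile as floor gave wild-type H3K27ac on 10.03%. Genes wholly inside numbered 527. Gene names of the deposited table were not used, since it gives gene counts. For the moved values the cause was not tested beyond what each alternative leaves out. No paired analysis was possible because each genotype and mark has 1 library. Depth is unknown and limits every density ratio, covered share and count of called intervals.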

Other observations

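Keratin genes, structural genes of epithelia that were on no list, were seen in the domains and counted after their values were seen. Of 54 keratin genes 24 overlapped a domain, beside 3.42% of all curated genes. They lay in 8 domains, 7 of them on chromosome 15 in the run that also holds HoxC, and neighbouring keratin genes share a domain. The median covered share of the 8 domains in K27M was 2.31% and the highest 27.9%, at a median wild-type density of 8.12. In 4 of the 8 no K27M H3K27me3 interval was called, among them the 61399 bp domain of Krt6a, Krt5, Krt71 and Krt74. H3K4me3 was on 2 of the 8 in K27M and 2 in wild type, and no H3K27ac interval of either genotype touched any of the 8.

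Of the 113 domains with no curated gene, 80 (70.8%) were overlapped in K27M, with a median covered share of 13.7% and a median wild-type density of 7.63. A CpG island was counted in 17 of the 113 (15.0%).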
